A study of Mus musculus with 28 samples.

Results

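Genes of cholesterol and fatty acid synthesis were followed as a module of 30 genes, each found by an exact match of its name in the series' expression tables, which hold 31673 genes. The module holds 7 genes of the mevalonate steps (Acat2, Hmgcs1, Mvk, Pmvk, Mvd, Idi1 and Fdps) and 11 of the squalene and sterol steps (Fdft1, Sqle, Lss, Cyp51, Tm7sf2, Msmo1, Nsdhl, Hsd17b7, Ebp, Sc5d and Dhcr7). It also holds 5 regulators and the sterol carrier Stard4, 6 genes in all (Insig1, Insig2, Srebf1, Srebf2, Scap and Stard4) and 6 genes of the fatty acid steps (Acly, Acaca, Fasn, Elovl6, Scd1 and Scd2). All 30 members were found and all 30 passed the filter on low counts.

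Mevalonate enzymes turn acetyl-CoA into isoprenoid units, which the squalene and sterol enzymes join, cyclise and trim to cholesterol. The SREBP proteins, encoded by Srebf1 and Srebf2, are transcription factors held in the endoplasmic reticulum membrane; Scap escorts them to the Golgi for cleavage when membrane sterol is low, and the Insig proteins hold Scap back when sterol is high. SREBP-2 acts mainly on sterol genes and SREBP-1 mainly on fatty acid genes, and the liver is a main site of both pathways in the animal.

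The study turned mouse fibroblasts into endoderm-lineage cells with chemicals, and RNA-seq was made from 28 libraries in 9 groups. Starting cells were MEF, embryonic fibroblasts taken at E13.5 (3 libraries, passage 2), and MNF, neonatal dermal fibroblasts (2 libraries, passage 2). Chemically induced endodermal progenitor cells came from each source: MEF_ciEPC (10 libraries, in series 1 at passages 2, 3, 4, 6, 10 and 22 and series 2 at passages 1, 5, 10 and 22) and MNF_ciEPC (2 libraries, passages 2 and 3, for which the source field of the labels names MEF while title and cell type name MNF). Hepatocyte-like cells made from progenitors of passages 3 to 10 were MEF_ciHep (3 libraries) and MNF_ciHep (2 libraries). The references were pHep, hepatocytes from adult liver at passage 0 (2 libraries), ESC, OG2 embryonic stem cells at passage 5 (2 libraries), and ESC_EPC, progenitors made from stem cells of passages 10 to 15 (2 libraries). Every group carried an Oct4-GFP reporter allele. MNF, MNF_ciEPC, MNF_ciHep and pHep were CBA/CaJ X C57BL/6J, and the other 5 groups came from such carriers crossed to 129Sv/Jae, so MEF_ciHep against pHep also differs in strain. Nothing in the labels ties replicates to separate cultures, so p-values measure the spread between these libraries, which may be technical.

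Library totals ran from 1439670 to 6133147 expected counts. The length that the tables subtract from each gene fell into 3 classes: 49.5 to 50.6 bases in pHep, MEF_ciEPC and the ciHep groups, 74.3 to 74.5 in ESC, MNF_ciEPC and both fibroblasts, and 186.6 to 195.7 in ESC_EPC. Comparisons of MEF_ciEPC with MEF, MNF_ciHep with MNF_ciEPC and ESC_EPC with ESC therefore cross classes. Length class and cell group cannot be told apart there. The library labelled MEF_ciEPC series 2 passage 22 stood apart: its correlation across genes was 0.973 to 0.976 with ESC and 0.868 to 0.888 with the other MEF_ciEPC, and it held 834 TPM (transcript abundance scaled to a fixed library sum) of Nanog against at most 1.15 in them. It was left out, and counts with it are given where they differ. Hepatocyte markers summed to 11744 to 25352 TPM in MEF_ciHep and 15863 to 27362 in pHep, but to only 42.5 to 143 in MNF_ciHep. Serpina1a, Cps1 and Cyp2e1 were listed at 0 in both libraries labelled MNF_ciHep, Alb was at most 0.56 TPM there, and fibroblast markers summed to 2268 to 4995 TPM, so their markers go against the hepatocyte label.

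Promoters of 4 members are shown because they carry the letters that SREBP proteins and their usual partners read, in a sterol enzyme, a fatty acid enzyme, the SREBP-2 gene and the SREBP brake Insig1. Sequences are from RefSeq on GRCm38.p6, written along the gene's strand, with 200 bases each. Capitals mark matches to the core of the sterol regulatory element (TCANNCCA) or its longer form, which adds an A before and a C after that core, to a CCAAT box (CCAAT) or to an E-box (CACGTG), on either strand.
Acly (chr11:100528001-100528200, minus strand): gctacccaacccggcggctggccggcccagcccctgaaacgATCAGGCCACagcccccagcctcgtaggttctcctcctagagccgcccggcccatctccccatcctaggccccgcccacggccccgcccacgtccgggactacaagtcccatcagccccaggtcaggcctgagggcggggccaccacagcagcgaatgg
Hmgcs1 (chr13:119690151-119690350, plus strand): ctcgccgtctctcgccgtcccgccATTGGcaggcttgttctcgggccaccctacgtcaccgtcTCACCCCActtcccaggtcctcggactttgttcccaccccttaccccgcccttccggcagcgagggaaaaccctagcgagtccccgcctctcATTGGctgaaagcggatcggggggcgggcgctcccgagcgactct
Srebf2 (chr15:82147069-82147268, plus strand): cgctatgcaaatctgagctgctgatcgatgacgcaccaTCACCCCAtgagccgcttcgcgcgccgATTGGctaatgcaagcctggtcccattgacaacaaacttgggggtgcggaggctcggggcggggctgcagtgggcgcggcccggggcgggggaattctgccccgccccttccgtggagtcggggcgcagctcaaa
Insig1 (chr5:28071212-28071411, plus strand): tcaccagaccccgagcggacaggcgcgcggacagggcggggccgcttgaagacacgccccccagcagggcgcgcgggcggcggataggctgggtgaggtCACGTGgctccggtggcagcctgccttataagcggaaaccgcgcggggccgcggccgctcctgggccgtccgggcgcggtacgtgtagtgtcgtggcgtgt
In windows from 250 bases before to 50 bases after the start, 24 of the 30 members had an entry, and Fdps, Scd1, Sqle, Fdft1, Stard4 and Scd2 had none. A CCAAT box was present in 20 of the 24 genes (83.3%), against 41.06% of all genes with a promoter entry. The short sterol element was present in 5 of 24 (20.8%; Acly, Hmgcs1, Msmo1, Srebf1 and Srebf2) against 17.61%, and the E-box in 5 of 24 (20.8%; Dhcr7, Hsd17b7, Insig1, Sc5d and Scap) against 8.09%. The long sterol element was found in Acly alone (4.2%, against 0.83% of genes). A gene with several promoters has more chances to match, so shares were also taken per promoter, over 32 member promoters and 32851 in all. These were 65.6% against 37.4% for the CCAAT box and 15.6% against 15.7% for the short sterol element. They were 18.8% against 7.15% for the E-box and 3.1% against 0.724% for the long sterol element. These matches describe letters, and no binding was measured.

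Primary hepatocytes held the lowest mean level of 18 of the 30 members, and MNF_ciEPC the highest mean level of 9. How many of all genes were lowest or highest in these groups was not counted. By library, MNF_ciEPC overlapped the group with the next lower mean for each of the 9. Of the 18, Fdps and Dhcr7 overlapped the group next above pHep, and the others did not. This check covers only the neighbouring group by mean, so groups further above may still overlap pHep. Among others, the lowest MEF_ciEPC library was under the highest pHep library for Hmgcs1 (69.98 against 99.7 TPM), Idi1 (36.3 against 52.3) and Cyp51 (44.7 against 52.3). The 18 sterol synthesis enzymes together summed to 1105 ± 19.7 TPM in pHep (SD, n = 2) and to 2677 ± 440.4 in MNF_ciEPC (n = 2). MEF reached 1952 ± 649 (n = 3), MNF 1445 ± 17.9 (n = 2) and MEF_ciEPC 2557 ± 209 (n = 2 series). MEF_ciHep reached 1741 ± 59.0 (n = 3), MNF_ciHep 2229.6 ± 689 (n = 2), ESC 1841 ± 79.3 (n = 2) and ESC_EPC 2376 ± 18.6 (n = 2). The 6 fatty acid genes were further apart: pHep summed to 349 ± 32.1 TPM, and the next lowest group, MNF, to 883 ± 40.5. Insig2 was the only member whose highest mean was in pHep. In these bulk libraries, fewer cells expressing a gene and less RNA per cell cannot be told apart.

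**Figure D1:**
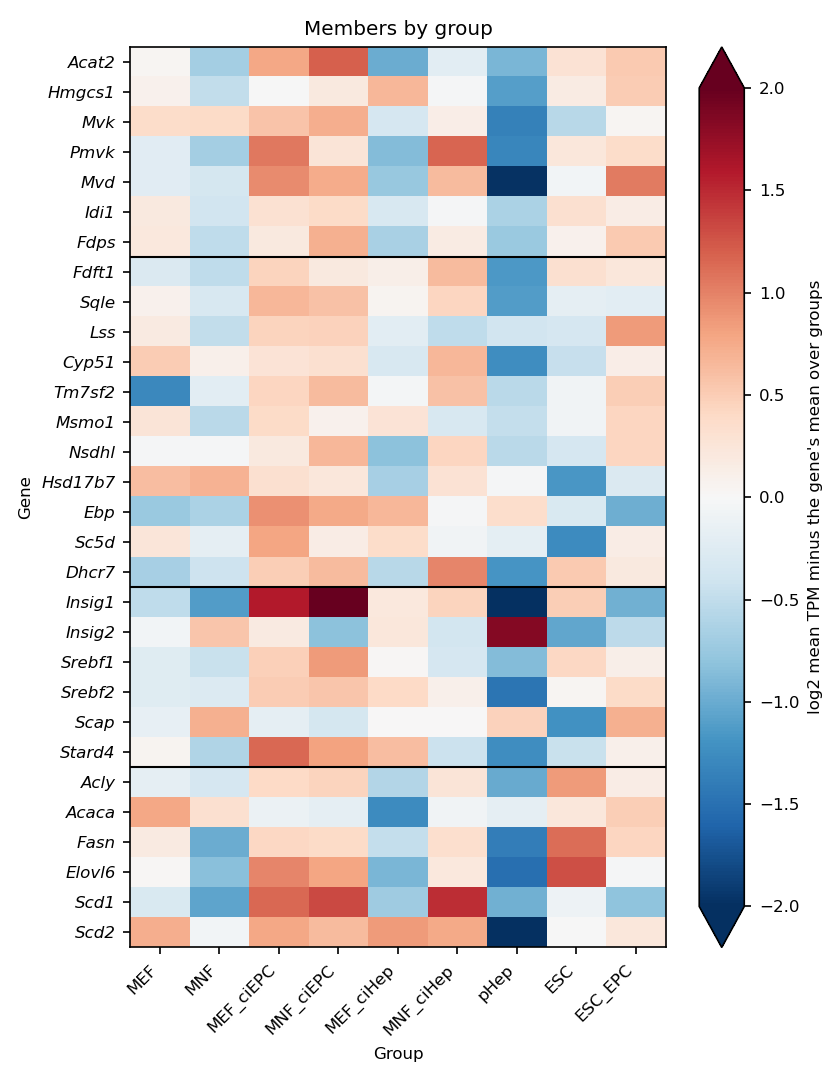
Heat map of the 30 members (vertical axis, by role) in the 9 cell groups (horizontal axis), coloured by log2 of the group mean TPM minus that gene's mean over groups, with colours capped at 2 in either direction. The pHep column is the lowest for 18 members, and Insig2 is the member highest there.

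Each comparison below used edgeR's quasi-likelihood test on all 16055 genes that passed the filter, and a gene counted as changed at a Benjamini-Hochberg adjusted p under 0.05 with at least a 2-fold difference. From MEF to MEF_ciEPC, 7 members rose and 1 fell, so 26.7% of members changed against 34.0% of all genes, with a median log2 fold change of 0.36 against 0.07 over all genes. From MNF to MNF_ciEPC, 11 rose and 2 fell, 43.3% against 40.8%, with a median of 0.74 against 0.00. The share that changed was thus close to or below the background in both. On the MNF route the changes ran mostly upwards, and 36.7% of members rose against 18.6% of all genes. On the MEF route 23.3% rose against 17.1%, nearer the background, and without MEF replicate 1 the 7 risers became 4. From ESC to ESC_EPC, 3 rose and 2 fell, 16.7% against 34.2%, with a median of 0.16 against 0.00. Adding the library labelled MEF_ciEPC series 2 passage 22 took the 7 risers from MEF to 5, and limma on log2(TPM + 1) gave 8 higher and 0 lower there.

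From MEF_ciEPC to MEF_ciHep, 0 members rose and 6 fell, so 20% of members changed (all downwards) against 32.5% of all genes (13.8% downwards), with a median of -0.45 against -0.02. In that direction of 0, edgeR gave 3 members an unadjusted p under 0.05, and RLE scaling and DESeq2 each called 1 higher and 5 lower; limma on log2(TPM + 1) called 0 higher and 9 lower. From MNF_ciEPC to MNF_ciHep, 1 rose and 4 fell, 16.7% against 31.2%, and limma gave 0 and 4. Against pHep, 9 members were higher and 1 lower in MEF_ciHep, 33.3% against 26.7% of all genes, with a median of 0.57 against 0.01. In MNF_ciHep 13 were higher and 1 lower than in pHep, 46.7% against 32.7%, with a median of 0.89 against 0.11. Higher calls made up 30% and 43.3% of members in these 2 comparisons, against 15.5% and 19.0% of all genes. Both use the same 2 pHep libraries, so they are not independent. The steps themselves were also compared between the routes by an interaction term. Each of these crosses length classes on 1 route only, MEF for the first step and MNF for the second. The MEF and MNF groups also differ in strain and in embryonic or neonatal source. Length class, strain and source therefore cannot be told apart from route. From fibroblast to ciEPC, 2 members changed more upwards and 2 more downwards on the MNF than on the MEF route, 13.3% against 15.9% of all genes (6.87% upwards and 9.04% downwards; limma 1 and 0), with a median of 0.34 against -0.14. From ciEPC to ciHep these were 6 and 1, 23.3% against 28.5% (16.7% upwards and 11.7% downwards; limma 5 and 0), with a median of 0.26 against 0.14. The choice of scaling moved the median of all genes by 0.11 with RLE from MEF_ciEPC to MEF_ciHep, and on the TPM scale by -0.28 there, -0.19 from MNF_ciEPC to MNF_ciHep, 0.20 from MEF to MEF_ciEPC, 0.13 from MNF to MNF_ciEPC, 0.13 from ESC to ESC_EPC and 0.15 for MNF_ciHep against pHep; no called member changed direction.

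**Figure D2:**
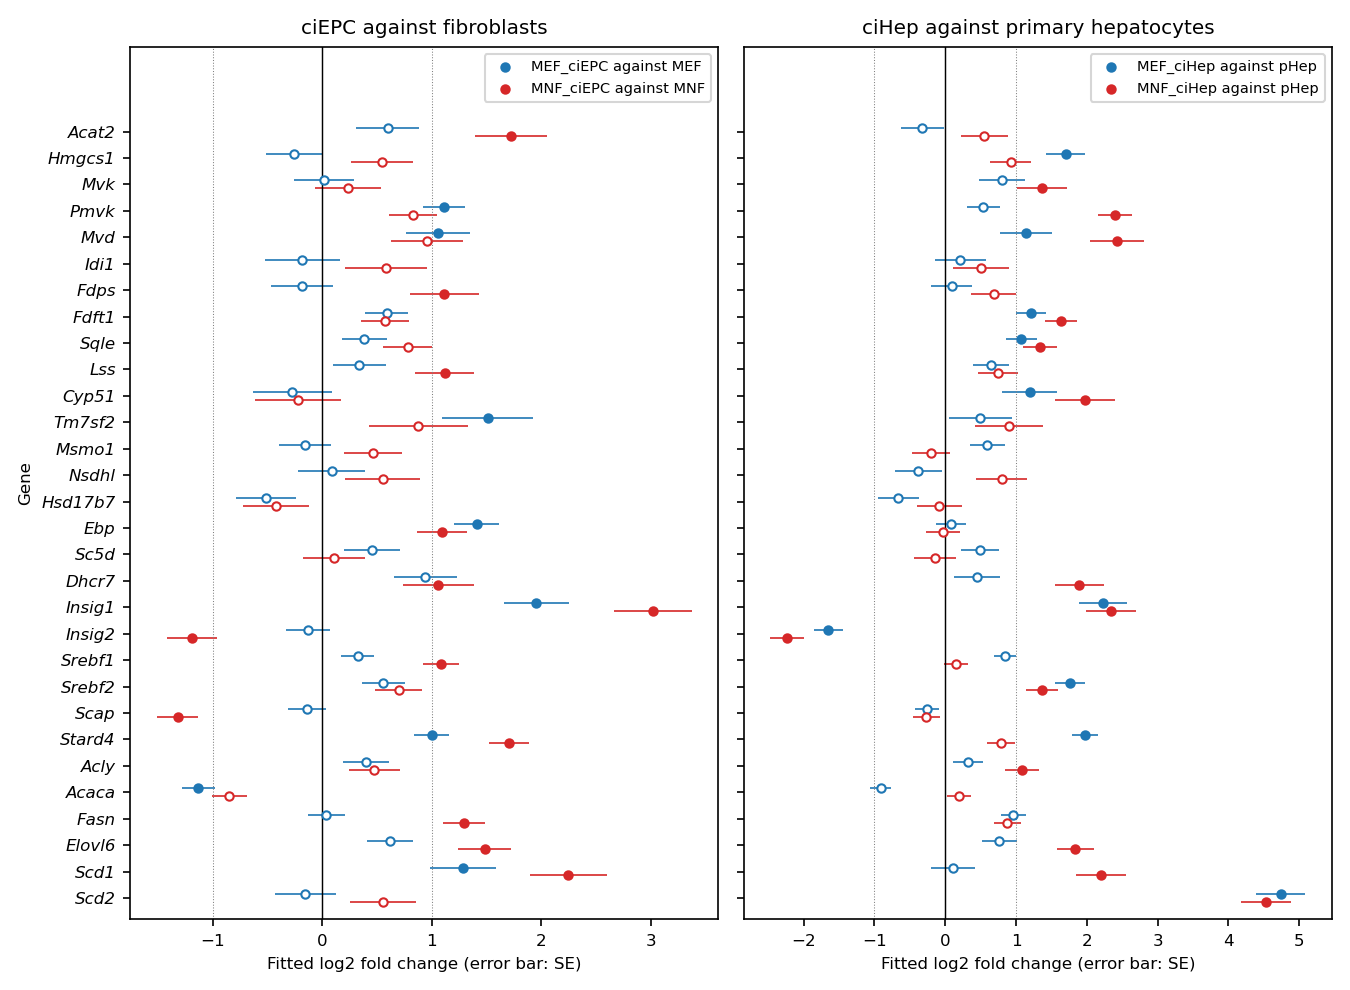
Fitted log2 fold change (horizontal axis) of each member with its standard error, for ciEPC against fibroblasts (left) and ciHep against pHep (right); filled points passed the test and dotted lines mark a 2-fold difference. Of the filled points, 18 of 21 on the left and 22 of 24 on the right lie above 0.

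By library, the groups did not overlap in TPM for 8 members from MEF to MEF_ciEPC (35.4% of all genes did not overlap), 7 of them higher in MEF_ciEPC. All 30 members were apart between MNF and MNF_ciEPC (78.0% of all genes), 26 of them higher in MNF_ciEPC, and 26 between ESC and ESC_EPC (74.4%). Between MEF_ciEPC and MEF_ciHep 7 were apart, all lower in MEF_ciHep (34.6%), and between MNF_ciEPC and MNF_ciHep 16 (70.0%). Against pHep, 21 were apart in MEF_ciHep (48.5%), 18 of them higher, and 21 in MNF_ciHep (63.2%), 19 of them higher.

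Among mevalonate genes, Acat2, Pmvk and Mvd fell from MEF_ciEPC to MEF_ciHep, and Acat2 also rose and fell along the MNF route. Acat2, the cytosolic thiolase that joins acetyl-CoA units at the head of the pathway, stood at 52.5, 133 and 130.5 TPM in MEF and ran from 68.5 to 328 with a median of 175 over the 9 MEF_ciEPC libraries. It was at 53.0, 49.7 and 51.2 TPM in MEF_ciHep, below every MEF_ciEPC library (log2 fold change -1.73, SE 0.29, adjusted p = 1.8e-04). On the MNF route it went from 67.0 and 61.1 TPM in MNF to 187 and 280.1 in MNF_ciEPC (log2 fold change 1.73, SE 0.33, adjusted p = 3.5e-04) and 115 and 61.5 in MNF_ciHep (log2 fold change -1.20, SE 0.33, adjusted p = 0.0079). The last of these calls was lost without MNF_ciEPC replicate 2 (-0.95) or MNF_ciHep replicate 2 (-0.94). The other groups held 47.4 and 61.9 TPM in pHep, 138 and 113 in ESC and 146 and 148 in ESC_EPC. Mouse Acat2 has a close copy, Acat3, so reads may be split between them.

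Pmvk and Mvd encode phosphomevalonate kinase and mevalonate diphosphate decarboxylase, consecutive steps of the pathway. Pmvk was at 35.5, 73.6 and 63.1 TPM in MEF and ran from 62.3 to 189.5 with a median of 142 in MEF_ciEPC, with overlap (log2 fold change 1.11, SE 0.19, adjusted p = 1.7e-04). It fell to 35.1, 36.6 and 38.4 TPM in MEF_ciHep, below every MEF_ciEPC library (log2 fold change -1.63, SE 0.20, adjusted p = 7.8e-06). On the MNF route the direction differed: Pmvk stood at 46.5 and 37.3 TPM in MNF, 71.7 and 87.5 in MNF_ciEPC and 159 and 139.5 in MNF_ciHep, a rise in the last step (log2 fold change 1.03, SE 0.22, adjusted p = 0.0014). Both MNF_ciHep libraries were above 21.5 and 32.9 TPM in pHep (log2 fold change 2.40, SE 0.24, adjusted p = 2.6e-06). The step from ciEPC to ciHep differed between the routes by a log2 difference of 2.66 (interaction, SE 0.29, adjusted p = 1.1e-05). The rise from MEF was lost without MEF replicate 1 (0.91), and the rise to MNF_ciHep without MNF_ciHep replicate 1 (0.71) or MNF_ciEPC replicate 1 (0.84). ESC held 81.6 and 75.3 TPM and ESC_EPC 82.0 and 89.6.

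Mvd differed between the routes in the same direction as Pmvk. Its level was 23.0, 62.2 and 70.2 TPM in MEF, ran from 39.4 to 187 with a median of 115 in MEF_ciEPC (log2 fold change 1.05, SE 0.29, adjusted p = 0.0073) and was 23.5, 47.4 and 36.7 in MEF_ciHep, overlapping the lowest MEF_ciEPC libraries (log2 fold change -1.49, SE 0.30, adjusted p = 7.2e-04). The rise from MEF was lost with the library labelled MEF_ciEPC series 2 passage 22 (0.96) and without MEF replicate 1 (0.73) or MEF_ciEPC series 2 (0.97). MNF held 46.1 and 48.6 TPM, MNF_ciEPC 87.8 and 114, MNF_ciHep 99.8 and 88.8 and pHep 15.5 and 15.3, so both ciHep groups were above pHep (log2 fold change 2.42, SE 0.39, adjusted p = 1.4e-04 for MNF_ciHep). For MEF_ciHep against pHep the call (log2 fold change 1.14, SE 0.37, adjusted p = 0.022) was lost without either pHep library (1.34 without replicate 1 and 0.97 without replicate 2, both with an adjusted p over the threshold) and without MEF_ciHep replicate 2 (0.89). The last step differed between the routes by 1.57 (interaction, SE 0.44, adjusted p = 0.013), a call lost without MNF_ciEPC replicate 1 (1.38) or MNF_ciHep replicate 1 (1.46). ESC held 60.6 and 56.6 TPM and ESC_EPC 118 and 129.8.

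Fdps, farnesyl diphosphate synthase, was the most abundant mevalonate gene in 8 of the 9 groups by mean TPM. It stood at 236 and 280.1 TPM in MNF and 518 and 679 in MNF_ciEPC (log2 fold change 1.12, SE 0.31, adjusted p = 0.0067), while MEF at 234, 517 and 529 and MEF_ciEPC, which ran from 136 to 676 with a median of 457, overlapped. The 2 steps differed by 1.30 (interaction, SE 0.42, adjusted p = 0.041), a call lost in 11 of 18 alternatives, among them leaving out MEF replicate 2 (1.12), MEF replicate 3 (1.18), MNF replicate 1 (1.19), MNF replicate 2 (1.48), either MEF_ciEPC series (1.18 and 1.46) or either MNF_ciEPC library (1.49 and 1.11). The rise from MNF was lost without MNF replicate 1 (1.003) or MNF_ciEPC replicate 2 (0.98). Fdps was at 213, 265 and 227 TPM in MEF_ciHep, 559.7 and 265 in MNF_ciHep, 221 and 216 in pHep, 392 and 383 in ESC and 529 and 528 in ESC_EPC.

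Hmgcs1, the cytosolic HMG-CoA synthase, was higher in MEF_ciHep, at 346, 290.1 and 290.4 TPM, than in pHep, at 81.5 and 99.7 (log2 fold change 1.70, SE 0.28, adjusted p = 1.8e-04). It was the mevalonate gene with the highest mean in MEF_ciHep, where the other 6 had means of 35.8 to 235 TPM. Its difference from MEF_ciEPC, 0.91, was under the 2-fold minimum, and passed it with RLE scaling or DESeq2 (1.03 in both) and without MEF_ciEPC series 2 (1.08) or MEF_ciHep replicate 2 (1.01). Mvk, mevalonate kinase, was higher in MNF_ciHep than in pHep (log2 fold change 1.37, SE 0.35, adjusted p = 0.005), a call lost without MNF_ciHep replicate 1 (0.78) or pHep replicate 2 (0.95). Idi1, isopentenyl diphosphate isomerase, did not pass the test in any comparison, with log2 differences, interactions included, of -0.32 to 0.77.

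In the squalene and sterol steps, 2 of 11 genes rose from MEF to MEF_ciEPC, close to the 17.1% of all genes, with a median log2 fold change of 0.38 against 0.07. From MNF to MNF_ciEPC 3 of 11 rose, against 18.6%, with a median of 0.57 against 0.00. From MEF_ciEPC to MEF_ciHep edgeR called 0 of the 11 and gave 3 an unadjusted p under 0.05, all lower (Lss, Nsdhl and Dhcr7); RLE scaling and DESeq2 called 0 and limma 2, Nsdhl (-1.02) and Dhcr7 (-1.06). From MNF_ciEPC to MNF_ciHep edgeR, RLE scaling, DESeq2 and limma called 0, and edgeR gave an unadjusted p under 0.05 to Fdft1, higher, and Lss, lower. Without MNF_ciHep replicate 1, Tm7sf2 (-1.39) and Lss (-1.06) were called lower there. Tm7sf2, a sterol reductase, was at 7.10, 22.7 and 24.8 TPM in MEF and ran from 28.3 to 105 with a median of 56.8 in MEF_ciEPC (log2 fold change 1.51, SE 0.41, adjusted p = 0.0067); every MEF_ciEPC library was above every MEF library. MNF held 42.6 and 33.6 TPM and MNF_ciEPC 63.9 and 73.0, a difference of 0.88 that did not pass. Tm7sf2 was at 46.4, 49.0 and 34.3 TPM in MEF_ciHep, 102 and 31.7 in MNF_ciHep, 23.7 and 37.3 in pHep, 51.9 and 32.2 in ESC and 63.0 and 61.4 in ESC_EPC.

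Ebp, the sterol isomerase, rose on both fibroblast routes. It went from 36.2, 65.3 and 67.6 TPM in MEF to a range from 106 to 245 with a median of 193 in MEF_ciEPC (log2 fold change 1.41, SE 0.21, adjusted p = 3.7e-05) and from 69.1 and 52.3 in MNF to 132 and 185 in MNF_ciEPC (log2 fold change 1.10, SE 0.23, adjusted p = 8.3e-04), with no overlap on either route. MEF_ciHep held 171, 156 and 120.2 TPM, overlapping MEF_ciEPC, and pHep held 108 and 131. MNF_ciHep, at 109.6 and 74.7 TPM, was below both MNF_ciEPC libraries by TPM, while the fit on counts gave -0.03, not called. ESC_EPC, at 47.6 and 47.8 TPM, was below ESC, at 88.7 and 63.3, by TPM, while the fit on counts gave -0.04, not called. Both of these comparisons cross length classes. Fasn, described below, also had a gap in MNF_ciHep against pHep, which share a length class (0.87 by the fit, 1.68 by limma on log2(TPM + 1)). The source of the gaps between TPM and the fit on counts was not tested.

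Lss and Dhcr7, which encode lanosterol synthase and the enzyme of the final reduction to cholesterol, rose from MNF to MNF_ciEPC (log2 fold changes 1.12 and 1.06). Dhcr7 lost its call without MNF replicate 2 (0.992) or MNF_ciEPC replicate 2 (0.88), and Lss on the log2(TPM + 1) scale (0.97). Sc5d, the sterol desaturase before Dhcr7, was at 27.4 and 27.8 TPM in ESC and 76.5 and 69.9 in ESC_EPC (log2 fold change 1.33, SE 0.30, adjusted p = 0.002). Its other groups held 66.5, 57.0 and 111 TPM in MEF, 58.7 and 58.0 in MNF, 71.9 and 74.1 in MNF_ciEPC, 82.4, 87.6 and 86.0 in MEF_ciHep, 71.6 and 53.5 in MNF_ciHep and 73.0 and 41.9 in pHep, while MEF_ciEPC ran from 58.6 to 151 with a median of 111. ESC was the lowest group for Sc5d. Lss also rose from ESC to ESC_EPC (log2 fold change 1.10, SE 0.27, adjusted p = 0.0035), a call lost without ESC replicate 1 (0.995).

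Against pHep, Fdft1, Sqle and Cyp51, which make squalene, oxidise it and demethylate lanosterol, were higher in both ciHep groups. Fdft1 was at 123, 137 and 125 TPM in MEF_ciHep and 193 and 173 in MNF_ciHep against 40.6 and 66.0 in pHep (log2 fold changes 1.21 and 1.64). Sqle differed by 1.07 and 1.34, and Cyp51 by 1.19 and 1.97. Without pHep replicate 2 the MEF_ciHep differences were 0.83 for Sqle and 0.82 for Cyp51, and without MEF_ciHep replicate 2 that of Cyp51 was 1.07, none of which passed. Dhcr7 passed in MNF_ciHep (log2 fold change 1.89, SE 0.35, adjusted p = 4.8e-04) and not in MEF_ciHep (0.45), and its step from ciEPC differed between the routes by 1.28 (interaction, SE 0.43, adjusted p = 0.032), lost in 7 of 18 alternatives, among them without MNF_ciHep replicate 1 (0.98), MNF_ciEPC replicate 1 (1.05), MEF_ciHep replicate 1 (1.13) or either MEF_ciEPC series (1.25 and 1.24). Msmo1, Nsdhl and Hsd17b7, 3 enzymes of the demethylation steps, did not pass in any comparison.

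Insig1 was the member with the highest rise on both fibroblast routes. It stood at 81.6, 127 and 151 TPM in MEF and ran from 289 to 801 with a median of 571 in MEF_ciEPC (log2 fold change 1.96, SE 0.30, adjusted p = 5.2e-05). It stood at 79.8 and 78.2 TPM in MNF and 655 and 769 in MNF_ciEPC, an 8.13-fold rise (log2 fold change 3.02, SE 0.35, adjusted p = 3.5e-06). Every ciEPC library was above every fibroblast library. In ciHep it was lower again, at 252, 125 and 219 TPM in MEF_ciHep (log2 fold change -1.12, SE 0.29, adjusted p = 0.0051) and 228 and 239.6 in MNF_ciHep (log2 fold change -1.44, SE 0.33, adjusted p = 0.0028). The MEF_ciHep call was lost with RLE scaling (-0.996), DESeq2 (-0.995) or without MEF_ciHep replicate 2 (-0.82). Both ciHep groups were above pHep, at 45.3 and 29.2 TPM (log2 fold changes 2.23 and 2.34). The direction was opposite in the stem cell route, from 203 and 276 TPM in ESC to 91.4 and 85.4 in ESC_EPC (log2 fold change -1.54, SE 0.34, adjusted p = 0.0016).

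Insig2, its paralog, was highest in pHep, at 146 and 165 TPM, against 47.7, 68.7 and 37.3 in MEF_ciHep (log2 fold change -1.65, SE 0.20, adjusted p = 1.1e-05) and 38.3 and 29.4 in MNF_ciHep (log2 fold change -2.23, SE 0.24, adjusted p = 3.8e-06). Insig2 fell from 49.6 and 78.2 TPM in MNF to 26.8 and 22.9 in MNF_ciEPC (log2 fold change -1.19, SE 0.23, adjusted p = 3.5e-04). MEF held 30.3, 27.6 and 67.8 TPM and MEF_ciEPC ran from 19.5 to 73.7 with a median of 53.2, with overlap and a difference of -0.13 that did not pass. The routes differed by -1.06 (interaction, SE 0.30, adjusted p = 0.022), a call lost in 7 of 18 alternatives, among them without MEF replicate 2 (-0.97), MNF replicate 1 (-1.10), MNF replicate 2 (-0.97), MEF_ciEPC series 1 (-0.92) or MNF_ciEPC replicate 1 (-0.96). ESC held 29.1 and 13.6 TPM and ESC_EPC 28.4 and 32.6. As a share of both paralogs' TPM, Insig1 made up 50 to 61.7% in MNF and 96.1 to 97.1% in MNF_ciEPC, 69.0 to 82.1% in MEF and 84.2 to 96.8% in MEF_ciEPC, and 15.0 to 23.7% in pHep. It was the smaller part in both pHep libraries and the larger part, or an equal part in 1 MNF library, in every other library.

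**Figure D3:**
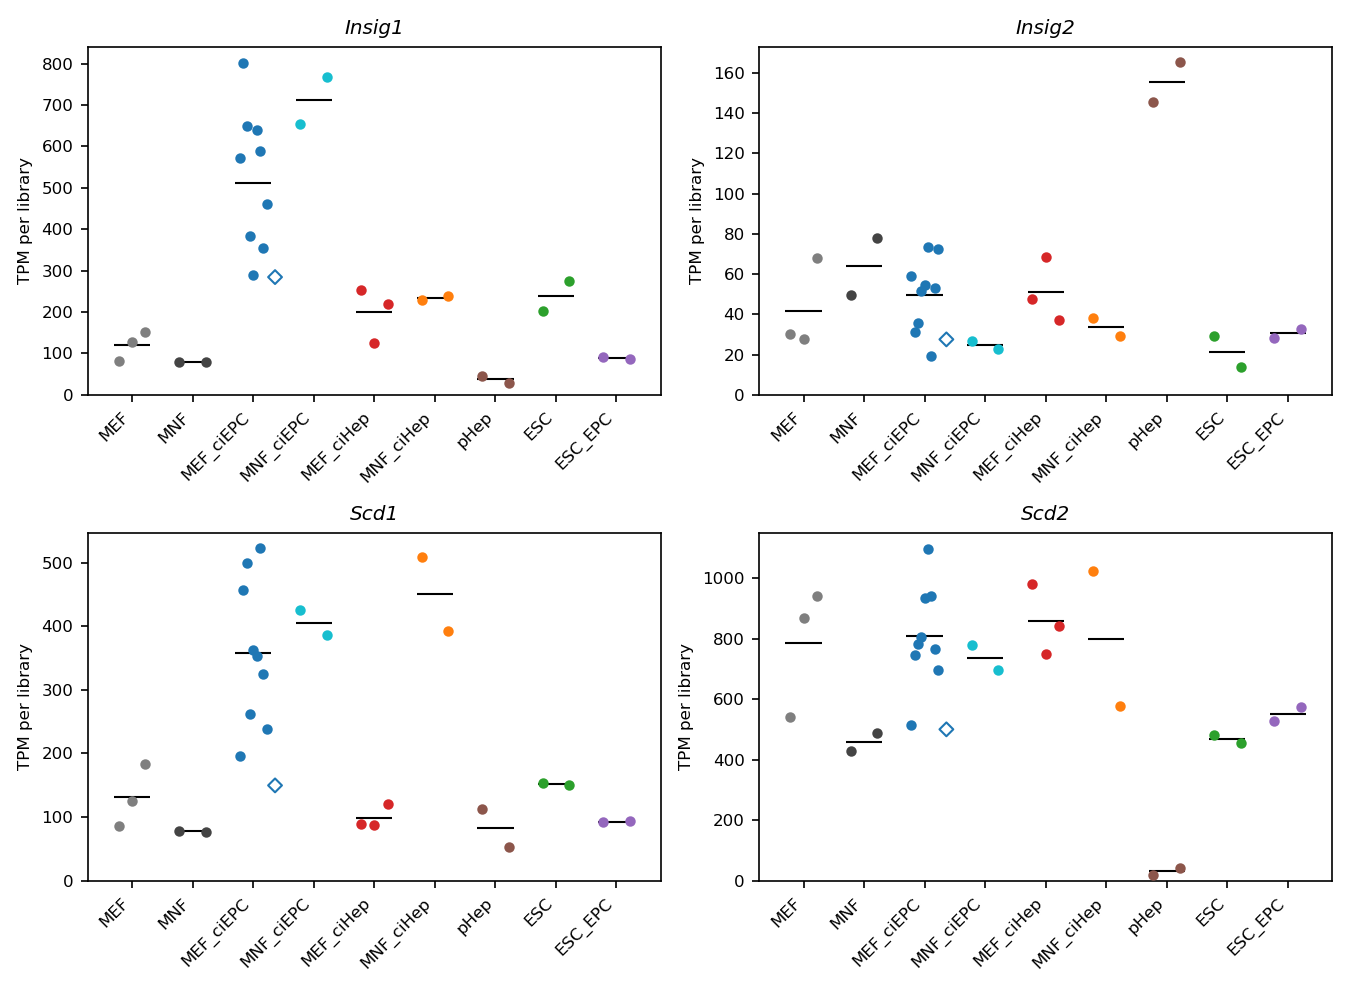
TPM of Insig1, Insig2, Scd1 and Scd2 (1 panel each, vertical axes from 0) in each library (points) by group; black bars are group means and the open diamond is the library labelled MEF_ciEPC series 2 passage 22. Insig2 exceeds Insig1 and Scd1 exceeds Scd2 only in the pHep libraries.

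Srebf1 rose and fell along the MNF route. The gene was at 76.0, 104 and 92.9 TPM in MEF, 86.5 and 70.9 in MNF and 201 and 187 in MNF_ciEPC, and ran from 96.0 to 253 with a median of 147 in MEF_ciEPC. It rose from MNF (log2 fold change 1.09, SE 0.17, adjusted p = 4.8e-05) and fell to 98.7 and 71.7 TPM in MNF_ciHep (log2 fold change -1.12, SE 0.17, adjusted p = 9.2e-05), while MEF_ciHep stayed at 111, 107 and 108 TPM, within the MEF_ciEPC range. That difference between the routes was -1.16 (interaction, SE 0.23, adjusted p = 0.0011), and it was -0.75 with limma on log2(TPM + 1), under the 2-fold minimum. pHep held 50.8 and 67.2 TPM, ESC 141 and 144 and ESC_EPC 108 and 124. The counts do not separate the Srebf1 isoforms.

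Srebf2 was lowest in pHep, at 51.1 and 48.2 TPM, and higher in MEF_ciHep, at 206, 160.3 and 169.6 (log2 fold change 1.76, SE 0.21, adjusted p = 1.1e-05), and in MNF_ciHep, at 124 and 168 (log2 fold change 1.37, SE 0.22, adjusted p = 1.7e-04). No ciHep library overlapped a pHep library. MEF held 84.5, 128 and 131 TPM, MNF 116 and 109, MNF_ciEPC 185 and 215, ESC 139.7 and 141 and ESC_EPC 170.2 and 183, and MEF_ciEPC ran from 125 to 236 with a median of 201. Srebf1 made up 29.9 to 58.2% of the pair's TPM over the libraries used.

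Scap, the escort protein, moved in opposite directions on 2 routes to progenitors. It fell from 76.3 and 84.6 TPM in MNF to 33.6 and 43.2 in MNF_ciEPC (log2 fold change -1.32, SE 0.19, adjusted p = 2.4e-05) and rose from 25.6 and 16.6 in ESC to 83.8 and 76.0 in ESC_EPC (log2 fold change 1.69, SE 0.19, adjusted p = 6.5e-06). MEF held 43.1, 40.2 and 48.1 TPM and MEF_ciEPC ran from 34.8 to 59.6 with a median of 41.7, a difference of -0.14 that did not pass. The MNF and MEF routes differed by -1.18 (interaction, SE 0.25, adjusted p = 0.0047), and on the log2(TPM + 1) scale this was -1.03 with an adjusted p = 0.054 by limma. Scap was at 45.2, 58.6 and 44.3 TPM in MEF_ciHep, 54.6 and 44.0 in MNF_ciHep and 53.3 and 81.2 in pHep, which overlapped.

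Stard4, a soluble carrier that moves cholesterol between membranes, rose on both fibroblast routes. It went from 46.1, 53.8 and 60.4 TPM in MEF to a range from 76.96 to 151 with a median of 119 in MEF_ciEPC (log2 fold change 1.002, SE 0.16, adjusted p = 8.4e-05) and from 35.3 and 31.9 in MNF to 95.6 and 82.9 in MNF_ciEPC (log2 fold change 1.70, SE 0.18, adjusted p = 1.5e-06), without overlap. The MEF difference lay at the 2-fold minimum: it was 0.88 to 0.96 in the 7 alternatives that lost the call, among them without MEF replicate 1 (0.95), MEF replicate 2 (0.90) or MEF_ciEPC series 2 (0.91), and its highest adjusted p in them was 0.0023. Stard4 was at 78.4, 71.5 and 84.5 TPM in MEF_ciHep against 20.2 and 23.1 in pHep (log2 fold change 1.97, SE 0.18, adjusted p = 8.9e-07), and fell to 38.0 and 37.6 in MNF_ciHep (log2 fold change -1.16, SE 0.18, adjusted p = 1.4e-04). ESC held 35.98 and 39.2 TPM and ESC_EPC 50.2 and 59.7.

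Among fatty acid genes, Scd1 rose on both fibroblast routes and Scd2 separated pHep from every other group. Scd1 and Scd2 are stearoyl-CoA desaturases, which put a double bond into saturated fatty acids; Scd1 is the main form of adult liver. Scd1 stood at 85.7, 126 and 183 TPM in MEF and ran from 196 to 523 with a median of 353 in MEF_ciEPC (log2 fold change 1.29, SE 0.30, adjusted p = 0.0024), and stood at 78.8 and 77.04 in MNF and 425 and 386 in MNF_ciEPC (log2 fold change 2.25, SE 0.35, adjusted p = 6.1e-05). The lowest MEF_ciEPC library was just above the highest MEF library. It fell to 89.2, 87.2 and 121 TPM in MEF_ciHep (log2 fold change -1.62, SE 0.30, adjusted p = 4.3e-04) but stood at 508 and 392 in MNF_ciHep, and the routes differed in this step by 1.94 (interaction, SE 0.46, adjusted p = 0.0041). pHep held 113 and 53.0 TPM, below MNF_ciHep (log2 fold change 2.203, SE 0.35, adjusted p = 1.5e-04) and overlapping MEF_ciHep (0.11, not called). ESC held 153 and 151 TPM and ESC_EPC 92.3 and 93.6.

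Scd2 was at 20.1 and 43.1 TPM in pHep, against 981, 751 and 843 in MEF_ciHep, a 26.7-fold difference (log2 fold change 4.74, SE 0.35, adjusted p = 1.5e-07), and 1024 and 577 in MNF_ciHep, a 23.2-fold difference (log2 fold change 4.54, SE 0.35, adjusted p = 2.7e-07). It was the highest difference of any member in either comparison. All other groups were far above pHep: MEF held 542, 870.2 and 943 TPM, MNF 429 and 487, MNF_ciEPC 779 and 696, ESC 483 and 456 and ESC_EPC 529 and 576, and MEF_ciEPC ran from 517 to 1096 with a median of 784. Scd1 therefore made up 55.1 to 84.9% of the pair's TPM in pHep but 8.33 to 12.6% in MEF_ciHep and 33.2 to 40.5% in MNF_ciHep. The Scd genes are similar in sequence, so their split depends on the authors' read assignment. pHep also held macrophage markers at a sum of 109 to 178 TPM (0 to 3 of 8 listed at 0), against 37.0 to 106 (5 to 6 of 8 at 0) in MEF_ciHep. Adipocyte markers summed to 129.9 to 176 TPM in pHep and 106 to 108 in MEF_ciHep, with 5 of 8 at 0 in both pHep libraries. The part of these cells in the differences was not tested.

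Elovl6, which elongates saturated fatty acids, rose from 25.3 and 18.9 TPM in MNF to 68.4 and 66.8 in MNF_ciEPC (log2 fold change 1.48, SE 0.24, adjusted p = 9.2e-05). It fell from a MEF_ciEPC range from 52.4 to 116 with a median of 77.1 to 24.7, 19.7 and 17.9 TPM in MEF_ciHep (log2 fold change -1.50, SE 0.22, adjusted p = 4.0e-05), and from 91.5 and 101 in ESC to 41.2 and 35.9 in ESC_EPC (log2 fold change -1.52, SE 0.24, adjusted p = 1.2e-04). MNF_ciHep, at 42.1 and 48.8 TPM, was above pHep, at 14.8 and 12.8 (log2 fold change 1.84, SE 0.26, adjusted p = 5.1e-05), and MEF held 27.0, 50.1 and 42.8. The routes differed in the step from ciEPC to ciHep by 1.18 (interaction, SE 0.32, adjusted p = 0.011), lost without MNF_ciEPC replicate 1 (1.12, adjusted p = 0.0505).

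Fasn, fatty acid synthase, was at 93.8 and 104 TPM in MNF and 253 and 263 in MNF_ciEPC (log2 fold change 1.29, SE 0.19, adjusted p = 3.2e-05), while MEF, at 184, 249.96 and 235, overlapped MEF_ciEPC, which ran from 134 to 399.8 with a median of 268 (0.04, not called). The routes differed by 1.26 (interaction, SE 0.26, adjusted p = 0.0037). The 2 fibroblast groups thus started apart: MNF was below every MEF library. Fasn was at 138, 173 and 113 TPM in MEF_ciHep, 295 and 203 in MNF_ciHep, 69.6 and 81.8 in pHep, 433 and 419 in ESC and 225 and 303 in ESC_EPC. For MNF_ciHep against pHep the fit on counts gave a log2 fold change of 0.87, under the 2-fold minimum. Limma on log2(TPM + 1) gave 1.68 and called it. From MNF_ciEPC to MNF_ciHep the fit on counts gave -0.72, also under the minimum, while the libraries overlapped in TPM. The source of these gaps was not tested.

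Acaca, the acetyl-CoA carboxylase that makes malonyl-CoA, was the member called lower from MEF to MEF_ciEPC. It fell from 40.0, 55.2 and 51.4 TPM in MEF to a range from 18.9 to 30.6 with a median of 25.4 in MEF_ciEPC (log2 fold change -1.13, SE 0.15, adjusted p = 1.4e-05), a call lost without MEF_ciEPC series 1 (-0.93) and by limma on log2(TPM + 1) (-0.85). MNF held 40.1 and 31.5 TPM and MNF_ciEPC 22.4 and 28.1, a difference of -0.85 under the 2-fold minimum. Acaca was at 9.82, 12.5 and 13.7 TPM in MEF_ciHep and 26.8 and 27.9 in MNF_ciHep, and the routes differed in that step by 1.43 (interaction, SE 0.22, adjusted p = 1.7e-04). pHep held 18.1 and 32.7 TPM, ESC 35.5 and 31.6 and ESC_EPC 40.2 and 40.2. Acly, ATP citrate lyase, which supplies acetyl-CoA to both pathways, was higher in MNF_ciHep than in pHep (log2 fold change 1.08, SE 0.23, adjusted p = 0.0017), lost without pHep replicate 2 (0.70) or MNF_ciHep replicate 1 (0.996).

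Replicates of several groups differed across the whole sterol module. The 18 sterol enzymes summed to 1212 TPM in MEF replicate 1 against 2216 and 2427 in the other MEF libraries, and that library was the lowest of its group for 17 of the 18. MNF_ciHep replicate 1 was the higher of its pair for 17 (2717 against 1742 TPM) and MNF_ciEPC replicate 2 for all 18 (2988 against 2366). In pHep, ESC and ESC_EPC the enzymes split 8 to 10 against 8 to 10 between replicates. How many of all genes were lowest or highest in these replicates was not counted, so a module trait and a library-wide one cannot be told apart. Without MEF replicate 1 the risers from MEF to MEF_ciEPC went from 7 to 4, and without MNF_ciHep replicate 1 the members lower in MNF_ciHep than in MNF_ciEPC went from 4 to 7.

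**Figure D4:**
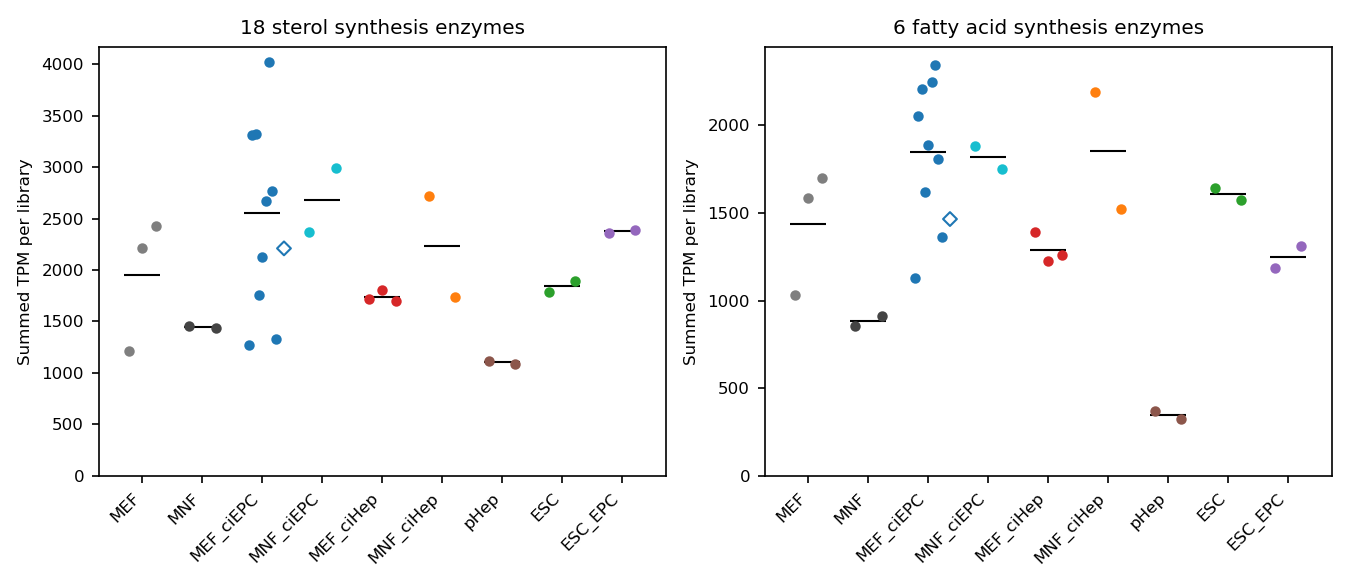
Summed TPM of the sterol enzymes and of the fatty acid genes in each library (points) by group; black bars are group means and the open diamond is the library labelled MEF_ciEPC series 2 passage 22. The 2 pHep libraries are the lowest points for both sums.

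The MEF_ciEPC libraries spread more widely, from 1269 TPM in series 1 passage 2 to 4023 in series 2 passage 1. Series 1 passage 2 was the lowest library for 9 of the 18 enzymes and series 2 passage 10 for 8, while series 2 passage 1 was the highest for 10. Shares over all genes were not counted here either. Single members differed from lowest to highest library by 1.62 times (Acaca) to 5.48 times (Hmgcs1). As a description, each member's log2 TPM was correlated (Pearson's r) with log2 of the summed sterol enzymes, leaving the member itself out of the sum. These 9 libraries share 2 culture series and differ in depth. Over them r was 0.689 to 0.986 for mevalonate genes, 0.582 to 0.973 for sterol genes and 0.593 to 0.957 for fatty acid genes. It was -0.739 for Insig2, 0.011 for Scap, 0.023 for Srebf1, 0.282 for Srebf2, 0.37 for Insig1 and 0.58 for Stard4. Over all 20 samples of the fit, which span the cell groups, it was -0.535 for Insig2, -0.209 for Scap, 0.748 for Srebf1, 0.777 for Srebf2, 0.73 for Insig1 and 0.682 for Stard4. The member most like the sum was Mvd. Genes outside the module were not correlated with this sum, so a trait of the module cannot be told apart from a library-wide one. Leaving series 1 passage 2 out, a choice made after seeing the data, left each count of members unchanged in the comparisons with MEF_ciEPC, at 7 higher and 1 lower against MEF.

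**Figure D5:**
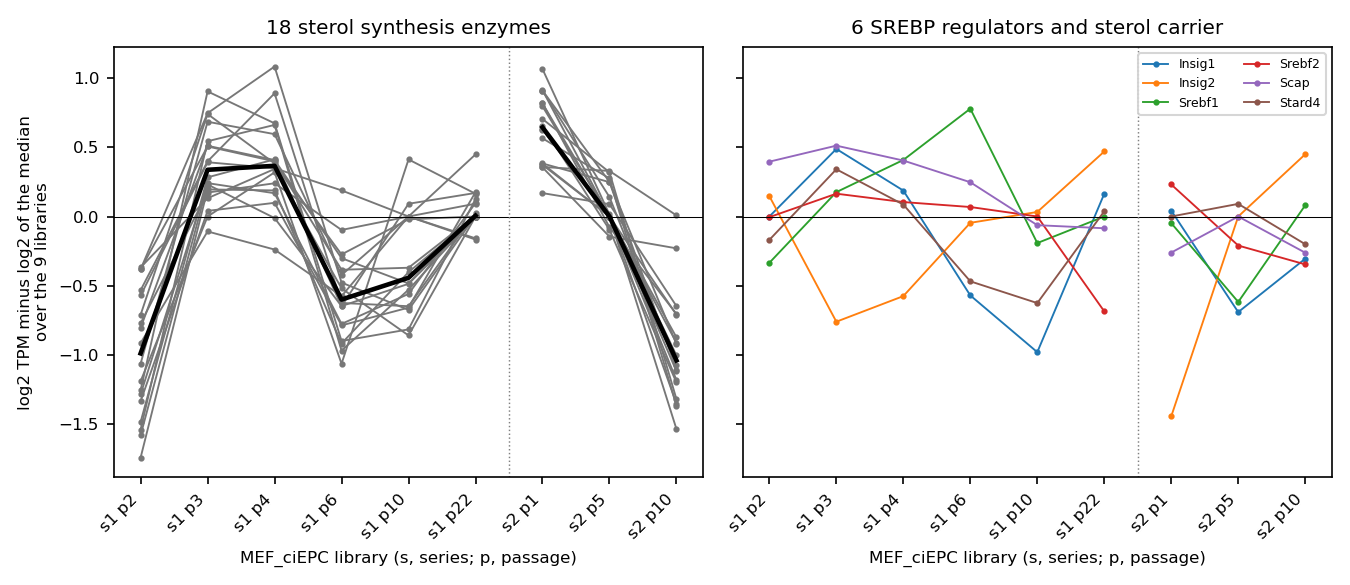
Log2 TPM minus log2 of the median over the 9 MEF_ciEPC libraries (vertical axis), by series and passage (horizontal axis), for the 18 sterol enzymes (left; the black line is their median) and the 6 regulators and sterol carrier (right). The enzymes are low together in series 1 passage 2 and series 2 passage 10, and Insig2 is lowest in series 2 passage 1, where the enzyme sum is highest.

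With passage, 0 members passed in either direction in a fit of the 9 MEF_ciEPC libraries on log2 passage with the series as a term, against 0.410% of 12190 genes (0.123% upwards and 0.287% downwards). By edgeR 1 member had an unadjusted p under 0.05 upwards (Insig2, slope 0.30 per doubling of passage, adjusted p = 0.22) and 1 downwards (Srebf2, slope -0.17, adjusted p = 0.23), and RLE scaling, DESeq2 and limma also gave 0. The median slope of the members was -0.11 per doubling, against -0.01 over all genes, and, as above, the synthesis enzymes vary together over these libraries. Without series 1 passage 2, Insig2 rose (0.46, adjusted p = 0.020) and Msmo1 fell (-0.37, adjusted p = 0.043).

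Genes of the same pathways outside the module were read from lists. Of 7 genes of sterol synthesis, uptake and transport, 1 fell and the other 6 did not pass the test from MNF to MNF_ciEPC (22.2% of all genes fell and 18.6% rose), with a median log2 fold change of 0.95 against 0.00 over all genes. The gene that fell was Npc2, a lysosomal cholesterol carrier, from 249.6 ± 3.84 to 120.5 ± 2.60 TPM (SD, n = 2 in each; log2 fold change -1.18, SE 0.19, adjusted p = 8.3e-05). From MEF to MEF_ciEPC, 1 of these 7 genes rose (17.1% of all genes), with a list median of 0.00 against 0.07. It was Vldlr, a lipoprotein receptor, which went from 24.2 ± 10.0 (n = 3) to 122 ± 23.8 TPM (n = 2 culture series; log2 fold change 2.11, SE 0.38, adjusted p = 2.4e-04). The Npc2 step differed between the routes by -1.18 (interaction, SE 0.26, adjusted p = 0.0052).

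Of 10 genes of SREBP processing and the sterol sensor LXR, 3 fell and 1 rose from MNF to MNF_ciEPC, against 22.2% lower and 18.6% higher over all genes, with a median of -0.56 against 0.00. From MEF to MEF_ciEPC 1 fell and 1 rose, against 16.9% and 17.1%, with a median of 0.18 against 0.07. These counts are near or below the background. Pgrmc1, an Insig1-binding membrane protein, fell from 185 ± 42.0 (n = 3) to 65.6 ± 0.259 TPM (n = 2 culture series) on the MEF route (log2 fold change -1.68, SE 0.22, adjusted p = 1.2e-05) and from 217 ± 3.73 to 64.7 ± 6.88 TPM (n = 2 in each) on the MNF route (log2 fold change -1.87, SE 0.23, adjusted p = 6.7e-06). Rxra, the partner receptor of LXR, fell on the MNF route (log2 fold change -2.59, SE 0.23, adjusted p = 2.0e-07). From MEF_ciEPC to MEF_ciHep 5 of the 10 rose, against 18.7% of all genes, with a median of 0.90 against -0.02; Pgrmc1 (1.91) and Rxra (1.56) were among them. Against pHep, Mlxipl, which encodes the carbohydrate-responsive factor ChREBP, was lower in MEF_ciHep, at 1.43 ± 1.82 TPM (n = 3, 1 library listed at 0) against 59.4 ± 15.0 (n = 2; log2 fold change -6.11, SE 0.51, adjusted p = 5.2e-07).

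Of 19 further genes of fatty acid synthesis and elongation that were tested, 6 rose from MEF to MEF_ciEPC, against 17.1% of all genes, with a median of 0.53 against 0.07. From MNF to MNF_ciEPC 5 of the 19 rose, against 18.6%, with a median of 0.81 against 0.00. Elovl7, a fatty acid elongase, was at or under 0.97 TPM in every fibroblast library and at 17.1 to 37.8 TPM in the ciEPC libraries of both routes, and passed the test on each. Acss2, which makes acetyl-CoA from acetate, rose from 8.47 to 78.4 TPM on the MEF route (log2 fold change 3.04, SE 0.26, adjusted p = 1.7e-07). Fads1 and Fads2, the polyunsaturated fatty acid desaturases, fell from MEF_ciEPC to MEF_ciHep (-1.84 and -1.75) and were higher in MNF_ciHep than in pHep (1.74 and 1.87).

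Proliferation markers, 10 genes, differed in their sum between groups, and none of them was listed at 0 in any library. They summed to 291 to 326 TPM in MNF and 1898 to 1928 in MNF_ciEPC, the route on which 11 members rose. They summed to 1171 to 1505 TPM in MEF, 1116 to 2402 in MEF_ciEPC and 181 to 343 in MEF_ciHep. In MNF_ciHep the sum was 850.4 to 927 TPM, in pHep 202 to 544, in ESC 2980.0 to 3390.3 and in ESC_EPC 808 to 983. The markers fell from ESC to ESC_EPC, while the mean sum of the 18 sterol enzymes was 1841 TPM in ESC and 2376 in ESC_EPC. The part of the proliferation markers in the differences between groups was not tested.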

How the data were processed

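Expression was measured by RNA-seq, from Trizol-extracted RNA and TruSeq libraries per the labels' protocols. The deposited tables hold expected counts and TPM per gene, which the authors made with RSEM 1.2.4 on mm10 per the submitters' processing notes; aligner and annotation are not given in the sources used here. Estimated counts share reads between similar genes, and TPM divides by an effective length that follows the library's read or fragment length. Of the deposited length columns, only their difference was used.

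Counts were rounded, and those of each MEF_ciEPC series were summed to 1 sample without the library labelled series 2 passage 22. All 20 samples were fitted in 1 model with edgeR 4.0.16 (R 4.3.3, quasi-likelihood test, TMM scaling, genes kept by filterByExpr at min.count 10). The fit was also run on simulated counts in which few genes changed, unlike these comparisons. No error rate for the calls is drawn from that run. Adjusted p-values (Benjamini-Hochberg) run over all 16055 genes, and SE is the log2 fold change over the square root of F. The passage fit used the 9 MEF_ciEPC libraries with no fold minimum; libraries of a series are read as 1 culture line, so its p-values measure the spread around a line within them.

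Alternatives were RLE scaling, DESeq2 1.42.0, limma 3.58.1 on log2(TPM + 1) with a minimum of 1 TPM in 2 samples, no filter, no fold minimum, a replicate block, all MEF_ciEPC libraries separate or included, and each replicate left out; leaving out series 1 passage 2 throughout was added after seeing the data. Members and lists were chosen with earlier results of these data known. Of the members, all may be named; values in every library are given for up to 4 called members per comparison with the largest change and for paralog pairs, and related lists give up to 4 called genes with the smallest adjusted p. Some genes of those pathways are not reported here. The members Fdps, Fasn, Acaca, Hmgcs1 and Fdft1 also have every value, a choice made after their values were seen. Promoter sequences are RefSeq's on GRCm38.p6.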

Additional observations from a re-analysis of the deposited data

Results flagged for a closer look

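In 2 of the 30 members, 1 of the 10 MEF_ciEPC libraries stood far from the others by the share of the range that its gap takes (Dixon's test), where chance gives about 1 in 20. Sqle was at 335.94 TPM in series 2 passage 1, against 111.25 to 224.66 in the others. Acaca was at 42.67 TPM in the library labelled series 2 passage 22, which resembles ESC, against 18.91 to 30.56 in the others.

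Steps that differed between the MNF and MEF routes, as a log2 difference by edgeR's interaction test, were these. From fibroblast to ciEPC, Fdps differed by 1.30 (adjusted p = 0.041) and Fasn by 1.26 (adjusted p = 0.0037), upwards on the MNF route, and Insig2 by -1.06 (adjusted p = 0.022) and Scap by -1.18 (adjusted p = 0.0047). This first set crosses length classes on the MEF route only. From ciEPC to ciHep, Pmvk differed by 2.66 (adjusted p = 1.1e-05), Mvd by 1.575 (adjusted p = 0.013), Dhcr7 by 1.28 (adjusted p = 0.032), Acaca by 1.43 (adjusted p = 1.7e-04), Elovl6 by 1.18 (adjusted p = 0.011) and Scd1 by 1.94 (adjusted p = 0.0041). Srebf1 differed by -1.155 (adjusted p = 0.0011). The ciEPC to ciHep values set MNF_ciHep, whose hepatocyte markers were near 0, beside MEF_ciHep. This second set crosses length classes on the MNF route only. In both sets the routes also differ in strain and fibroblast source.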

How the results depend on the processing

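Of 72 calls of single members, 49 held in every alternative, 23 were lost in at least 1 and 0 were reversed. The alternative with no fold minimum reuses the main fit, so no call can be lost in it. It is counted among the alternatives of each call. Numbers below count members called higher and lower. With no fold minimum they were 6 and 4 from ESC to ESC_EPC, 11 higher from MEF to MEF_ciEPC, 2 and 12 from MEF_ciEPC to MEF_ciHep, 4 higher from MNF_ciEPC to MNF_ciHep, 2 lower in MEF_ciHep against pHep and 2 lower in the ciHep interaction. RLE scaling and DESeq2 gave 1 higher from MEF_ciEPC to MEF_ciHep, as did separate MEF_ciEPC libraries, which gave 1 and 1 in the ciEPC interaction and 2 lower in the ciHep interaction. Limma gave 1 and 0 in the ciEPC interaction, 0 lower in the ciHep interaction, 0 higher from MNF_ciEPC to MNF_ciHep and 0 lower from MEF to MEF_ciEPC. With no low-count filter 0 rose from MNF_ciEPC to MNF_ciHep, and with the library labelled series 2 passage 22 the ciHep interaction had 2 lower.

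Same-numbered replicates did not deviate together (73 pairs, correlations -0.163 to 0.072), so numbers do not pair samples. The replicate block gave 1 higher in the ciEPC interaction, 8 higher from MEF to MEF_ciEPC and 7 higher in MEF_ciHep against pHep.

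With 1 replicate left out, where a lone sample is taken to vary like other groups, counts ran from 4 to 8 higher and 0 to 1 lower (MEF to MEF_ciEPC), 9 to 13 and 2 to 2 (MNF to MNF_ciEPC), 3 to 4 and 2 to 2 (ESC to ESC_EPC), 0 to 1 and 5 to 7 (MEF_ciEPC to MEF_ciHep), 0 to 1 and 3 to 7 (MNF_ciEPC to MNF_ciHep), 6 to 12 and 1 to 2 (MEF_ciHep against pHep), 11 to 17 and 1 to 1 (MNF_ciHep against pHep), 1 to 5 and 1 to 2 (ciEPC interaction), 3 to 8 and 1 to 2 (ciHep interaction) and 0 to 1 and 0 to 1 (passage). Single libraries moved counts over 1.5 times. Without MEF replicate 1 there were 4 higher from MEF to MEF_ciEPC and 5 higher in the ciEPC interaction, which had 1 higher without MEF replicate 2 or 3 or any MNF, MEF_ciEPC or MNF_ciEPC sample. It had 1 lower without MEF replicate 2, either MNF library, MEF_ciEPC series 1 or MNF_ciEPC replicate 1. Without MEF_ciEPC series 1 there were 0 lower from MEF, and without series 2 or MEF_ciHep replicate 2 there was 1 higher from MEF_ciEPC to MEF_ciHep. Without MNF_ciEPC replicate 1 or MNF_ciHep replicate 1 there were 0 higher from MNF_ciEPC to MNF_ciHep, and without the latter 7 lower. The ciHep interaction had 3 higher without MNF_ciEPC replicate 1 and 2 lower without MEF_ciEPC series 2, MNF_ciEPC replicate 2, MEF_ciHep replicate 2 or MNF_ciHep replicate 1. MEF_ciHep had 2 lower than pHep without pHep replicate 2. Where fewer samples or settings lost a call, the cause was not tested. Over all genes, the ciEPC interaction had 1103 higher and 1451 lower, against 703 and 852 without MNF replicate 1, and the passage fit 15 and 35, against 211 and 174 without series 1 passage 2 and 279 and 285 by DESeq2.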

Other observations

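Genes that store and export lipid, outside the synthesis module, were followed from ciEPC to ciHep on each route; the ciHep groups were not compared directly. Of 11 tested genes of triglyceride synthesis and storage, 7 rose and 2 fell from MEF_ciEPC to MEF_ciHep, against 18.7% and 13.8% of all genes, with a median log2 fold change of 2.02 against -0.02 over all genes. Gpam, the first acyltransferase of glycerolipid synthesis (log2 fold change 2.11, SE 0.20, adjusted p = 7.7e-07), Agpat2, the next (log2 fold change 2.25, SE 0.21, adjusted p = 8.5e-07), Dgat2, which makes triglyceride (log2 fold change 2.60, SE 0.29, adjusted p = 3.5e-06), and Mttp, which loads it onto lipoproteins (log2 fold change 3.60, SE 0.42, adjusted p = 5.5e-06), were among the risers. From MNF_ciEPC to MNF_ciHep 1 rose and 3 fell, against 31.2% of all genes called either way, with a median of -0.23 against 0.05; the riser was Plin2, a lipid droplet coat protein (log2 fold change 2.78, SE 0.27, adjusted p = 2.1e-06). The Gpam step differed between the routes by -2.44 (interaction, SE 0.30, adjusted p = 2.6e-05) and the Dgat2 step by -3.89 (interaction, SE 0.43, adjusted p = 1.1e-05). Against pHep, Gpam was lower in MNF_ciHep (log2 fold change -3.59, SE 0.23, adjusted p = 6.1e-08). Mogat1, a monoacylglycerol acyltransferase, was listed at 0 in every fibroblast library and had a mean of 108 TPM in MEF_ciEPC and 162 in MNF_ciEPC.

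Of 10 tested genes of sterol efflux, esters and oxysterols, 3 rose and 3 fell from MEF to MEF_ciEPC, against 34.0% of all genes called either way, with a median of 1.31 against 0.07. From MNF to MNF_ciEPC 3 rose and 4 fell, against 40.8%, with a median of -0.61 against 0.00. Cyp27a1, which makes an oxysterol ligand of LXR, rose on both routes (log2 fold change 6.34, SE 0.46, adjusted p = 3.5e-08 from MEF and log2 fold change 5.38, SE 0.48, adjusted p = 2.5e-07 from MNF). Abca1, the cholesterol exporter, fell from 42.5 ± 4.19 to 6.04 ± 1.75 TPM from MNF to MNF_ciEPC (SD, n = 2 in each; log2 fold change -3.14, SE 0.41, adjusted p = 9.2e-06). From MEF to MEF_ciEPC its log2 fold change was 0.75 (SE 0.34, adjusted p = 0.086), not called, and the routes differed by -3.89 (interaction, SE 0.52, adjusted p = 3.1e-04). Soat1, which esterifies cholesterol, was at 3.55 ± 4.91 TPM in pHep and at 131 ± 33.4 in MEF_ciHep (log2 fold change 5.67, SE 0.47, adjusted p = 3.4e-07).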
